A study of Mus musculus with 11 samples.

Results

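Chemokines are small secreted proteins that guide leukocytes along a gradient, and they are grouped by the spacing of their first cysteines into CC, CXC and CX3C ligands. They signal through G protein-coupled receptors named after the same groups. Interleukins are cytokines, many of which signal through receptor chains coupled to JAK and STAT proteins or, in the family of Il1r1, to Myd88 and NF-kB. Preadipocytes and adipocytes are known sources of several of these factors, of which Ccl2 (MCP1), the ligand of the monocyte receptor Ccr2, is the best studied in white fat.

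The genes described here are all those with a protein-coding sense row, marked in the deposited tables as the representative transcript of its gene, whose symbol starts with Ccl, Ccr, Cxcl, Cxcr, Cx3cl, Cx3cr or Il followed by a digit. This naming rule gave 140 of 21452 coding genes. Of the 140, 52 had an FPKM (a length-normalized level, which the authors computed as mapped bases per kb of exon and per Mb mapped in all) of at least 0.5 in 1 or more of the 11 samples, and the other 88 stayed under 0.5 in every sample, 37 of them at 0 throughout. The 52 members comprised 9 CC ligands, 10 CXC or CX3C ligands, 2 chemokine receptors, 10 interleukins or soluble inhibitors and 21 interleukin receptor chains. Ccl6 with a highest FPKM of 0.525 and Il22ra2 with 0.562 were just inside the minimum, and Il28ra with 0.497 and Ccr10 with 0.496 were just outside it. A member that was high in a single group passed through that group, so the 52 are not the 140.

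RNA was sequenced from im-scWAT cells, mouse inguinal subcutaneous white fat preadipocytes immortalized with SV40 large T antigen, and all samples come from this immortalized line. The time course held 6 samples, taken before induction (D0, 2 samples, replicates 1 and 2, labelled for the arm with and the arm without rosiglitazone but not yet induced) and at days 4 and 8 of adipogenic induction (D4 and D8) with or without rosiglitazone (ROS), a PPARγ ligand, at 0.5 μM, with 1 sample in each of these 4 groups. The other 5 samples were transduced cultures at D8, all differentiated with ROS, and all carried a short hairpin RNA against mouse Jmjd1a (sh-mJmjd1a) together with a retroviral, LTR-driven human JMJD1A, a histone demethylase of H3K9me2. The human protein was wild type in WT-hJMJD1A (replicates A and B, called WT A and WT B), had the phosphorylated serine replaced by alanine in S265A or by the phosphomimetic aspartate in S265D, and had an additional substitution of the catalytic domain in S265D-H1120Y, with 1 sample for each of these 3. The labels give ROS as withdrawn on day 7 and the study's methods give its use up to D8, and samples were grouped by the presence of ROS only. No label says that D0 or WT samples came from separate cultures, so p-values measure the spread between these samples, which may be technical.

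Totals of 3.10 to 5.29 Gb of mapped bases (median 4.64 Gb) stood behind the FPKM values, and read counts were not used here, so no counting interval is given. The summed FPKM of 8 adipocyte markers was 285 to 287 at D0, 10218 at D8 without ROS, 36688 at D8 with ROS and 15809 to 29815 in the WT pair. Fabp4 made up most of this sum in every sample (12393 FPKM in WT A and 26902 in WT B). Fabp4, Lpl and Pparg were higher in WT B than in WT A, whereas Adipoq, Plin1, Cebpa, Cidec and Lipe were lower. The sum of 8 preadipocyte and fibroblast markers was 2760 to 2939 at D0, 1199 at D8 without ROS, 533 at D8 with ROS, 529 in WT A and 1395 in WT B. Of 14 leukocyte markers in the files 3 reached 0.5 FPKM (Cd68, Cd14 and S100a8), their list summed to 2.45 to 23.8 FPKM over the groups, and Ptprc, Emr1, Tyrobp and Ncr1 were at 0 in every sample. Of 8 endothelial markers 2 reached 0.5 FPKM, with list sums of 0.427 to 4.09 FPKM. Kdm3a, the gene also called Jmjd1a and targeted by the hairpin, was 20.4 and 17.9 FPKM in WT A and B, 13.0 in S265A, 23.0 in S265D, 28.5 in S265D-H1120Y and 21.1 at D8 with ROS, values in which the transduced human sequence may be counted with the mouse gene. The D0 samples were close, with 0 of the 52 members 2-fold apart (0.231% of all 12998 tested genes were 2-fold higher in replicate 2 and 0.715% lower). WT A and WT B stood apart. In WT B, 25 members were at least 2-fold higher than in WT A, beside 12.1% of all tested genes, and 2 were at least 2-fold lower, beside 8.18%. Values that rest on the WT pair are therefore given sample by sample.

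Promoters of some ligands are shown first, since NF-kB, STAT and AP-1 factors are known regulators of this family. RefSeq windows (build GRCm38.p6) were found for 35 of the 52 members, and Ccl2, Ccl5 and Ccl7 were among those without one. The 250 bases before the listed start are printed 5′ to 3′ on the strand of the gene. They are shown for 3 CXC ligands whose FPKM was lower with ROS at D8. These 3 were selected as examples and do not stand for the other members. Capitals mark matches on either strand to a kappaB motif (GGGANNNNCC), an interferon-stimulated response element, ISRE (GAAANNGAAA), or an AP-1 motif (TGANTCA). Cxcl10 and Cxcl9 are neighbours on the minus strand of chromosome 5, and Cxcl1 lies on the plus strand of the same chromosome.
Cxcl10, chr5:92348890-92349139: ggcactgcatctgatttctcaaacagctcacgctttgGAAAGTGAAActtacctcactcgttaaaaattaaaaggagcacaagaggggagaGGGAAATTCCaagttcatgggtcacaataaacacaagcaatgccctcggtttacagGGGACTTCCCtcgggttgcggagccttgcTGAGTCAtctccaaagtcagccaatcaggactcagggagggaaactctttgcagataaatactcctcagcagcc
Cxcl9, chr5:92328080-92328329: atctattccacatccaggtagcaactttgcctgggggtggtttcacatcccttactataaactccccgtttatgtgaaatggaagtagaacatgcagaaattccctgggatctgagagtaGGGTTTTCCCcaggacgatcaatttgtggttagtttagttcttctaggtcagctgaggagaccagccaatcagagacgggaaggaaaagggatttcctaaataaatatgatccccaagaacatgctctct
Cxcl1, chr5:90890995-90891244: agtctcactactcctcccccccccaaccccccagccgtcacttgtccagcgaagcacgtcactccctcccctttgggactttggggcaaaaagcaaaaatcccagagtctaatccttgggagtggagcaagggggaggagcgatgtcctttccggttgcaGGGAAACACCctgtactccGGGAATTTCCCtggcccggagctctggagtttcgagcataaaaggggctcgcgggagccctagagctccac

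The Cxcl10 window held 4 matches, 2 of them to the kappaB letters, with 1 each to the ISRE and AP-1 letters. The Cxcl1 window held 3 kappaB matches, which overlapped in part because the letters GGGAATTTCCC match on both strands, and the Cxcl9 window held 1. Over the 47 windows of the 35 members, 13 held the kappaB letters (27.7%, against 17.6% of all 32851 windows), 6 the AP-1 letters (12.8% against 6.75%), 2 the ISRE letters (4.26% against 2.98%) and 1, of Ccl6, a PPARγ response element (AGGNCANAGGNCA, 2.13% against 0.338%). Of the 22 members that were lower with ROS at D8, described below, 14 had windows, and 5 of their 17 windows held the kappaB letters (29.4%). These are matches of letters in a short window, not binding sites.

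Preadipocytes at D0 were dominated by 2 CC ligands. Ccl2 and its neighbour Ccl7 (MCP3), both ligands of Ccr2, made up 61.2% and 59.8% of the summed FPKM of the 52 members in the D0 samples, and Ccl2 ranked 181 and 209 among all 12998 tested genes. At D8 with ROS the pair made up 12.6% and Ccl2 ranked 2882. Il6st (gp130), the shared signalling chain of the receptors for IL-6-type cytokines, was the third highest member at D0, and with ROS at D8 the highest members were Il17rc, Il6st and Il11ra1. Without ROS at D8 they were 3 ligands, Ccl2, Cxcl10 and Ccl5. This order is that of the representative rows and depends on them. On another coding row, of 1878 bases, Cxcl12 was 85.7 and 95.7 FPKM at D0, above Il6st. On that row it was 121 FPKM at D8 without ROS, above Ccl2, and 53.7 with ROS. The plot of all members by sample shows the levels on a log2 scale.

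**Figure D1:**
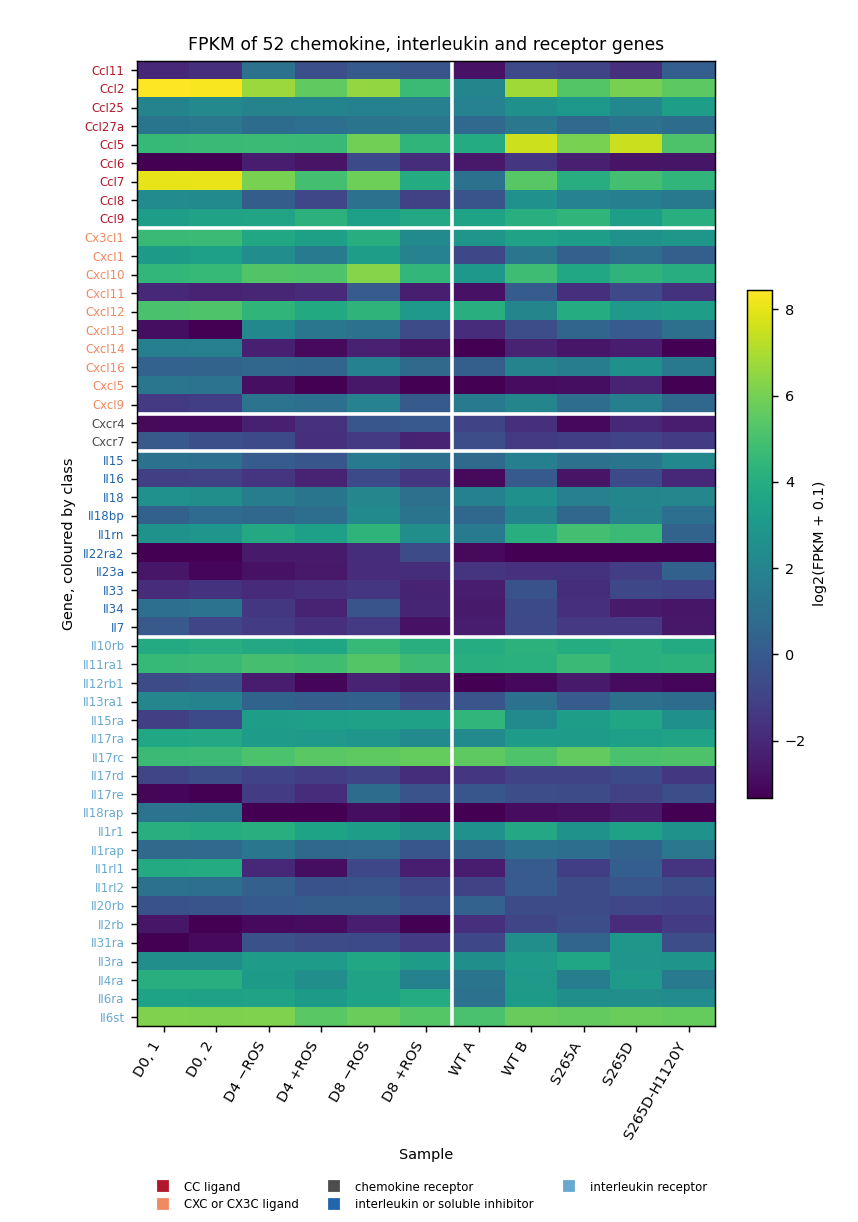
Heat map of log2(FPKM + 0.1) for the 52 members (rows, grouped and coloured by class) in the 11 samples (columns, time course left of the white line and transduced samples right of it). Ccl2 and Ccl7 are brightest at D0 (351 and 256 FPKM in replicate 1), and the receptor chains Il17rc and Il6st stay between 25.9 and 71.9 FPKM in every sample.

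Differentiation was compared with D0 by the ratio of FPKM + 0.1, with 2-fold as the limit, which the study applied to beige against white adipocytes. At D8 with ROS 21 of 52 members were at least 2-fold lower than at D0, beside 21.5% of all tested genes, and 10 were at least 2-fold higher, beside 17.8%. Without ROS at D8 the counts were 12 lower (11.1% of all genes) and 17 higher (17.9%). At D4 they were 20 lower (14.6%) and 7 higher (15.0%) with ROS and 10 lower (11.8%) and 6 higher (15.2%) without it. These 4 comparisons share the D0 samples. The counts are sensitive to low values. A pseudocount of 1 in place of 0.1 gave 1 higher at D8 with ROS and 7 lower and 10 higher at D8 without ROS. It gave 3 higher at D4 with ROS, and the share of all tested genes with that pseudocount was not counted. The median log2 ratio of the members was −0.34 at D8 with ROS (all tested genes −0.16) and 0.02 at D8 without ROS (all tested genes 0.05). In limma, with the spread between samples taken from the D0 pair, 35 members passed an adjusted p of 0.05 at D8 with ROS (59.6% of all genes did) and 36 at D8 without ROS (48.9%), 35 at D4 with ROS (48.4%) and 31 at D4 without ROS (44.3%). When all 11 samples shared the estimate of the spread, the counts were 10, 4, 5 and 3, and without either D0 sample they were 0, so rose and fell are used below only for the separate limma fit of the time course.

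Among the CC ligands, Ccl2 (chr11:81849079-81850954, mm9) and Ccl7 (chr11:81859214-81861025) fell at each time. Ccl2 was 351 and 328 FPKM at D0, 103 without and 48.3 with ROS at D4, and 93.0 without and 25.9 with ROS at D8. Its fold below D0 was 3.65 without and 13.0 with ROS at D8 (limma log2 SE 0.08 in both, adjusted p = 0.0101 and 0.00538). Ccl7 was 256 and 264 FPKM at D0, 67.2 without and 30.9 with ROS at D4, and 57.9 without and 15.3 with ROS at D8. Both ligands had the highest values in the D0 samples, and in both the sample with ROS was the lower one at each day. In the limma fit over all 11 samples, Ccl2 and Ccl7 were called in no comparison with D0. The same held for Ccl8, Il13ra1, Il34 and Il4ra. In the transduced samples Ccl2 was 4.16 and 109 in WT A and B, 39.5 in S265A, 66.1 in S265D and 44.6 in S265D-H1120Y, and Ccl7 was 2.01 and 41.7 in WT A and B, 16 in S265A, 30.5 in S265D and 21.4 in S265D-H1120Y. WT A was the lowest and WT B the highest of the 5 for each, a 25.5-fold difference for Ccl2 and a 19.8-fold difference for Ccl7. The ratio of Ccl2 to Ccl7 stayed between 1.24 and 2.60 over the 11 samples while Ccl2 itself ran from 4.16 to 351 FPKM.

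The same gene cluster of chromosome 11, 81.2 kb from Ccl2 to Ccl8, held 2 further members. Ccl8 (MCP2) was 4.99 and 4.66 FPKM at D0, 1.00 without and 0.462 with ROS at D4, and 1.97 without and 0.383 with ROS at D8, and 0.736 and 6.20 in WT A and B, 3.58 in S265A, 3.30 in S265D and 2.63 in S265D-H1120Y. Ccl11 (eotaxin, a ligand of Ccr3 on eosinophils) was 0.159 and 0.199 FPKM at D0, 2.00 without and 0.639 with ROS at D4, and 0.915 without and 0.728 with ROS at D8, and 0.0498 and 0.504 in WT A and B, 0.437 in S265A, 0.205 in S265D and 1.03 in S265D-H1120Y. Ccl8 fell along with Ccl2 and Ccl7, 10.2-fold at D8 with ROS, whereas Ccl11, between Ccl7 and Ccl8, had its lowest time course values at D0 and rose 2.97-fold at D8 with ROS (limma adjusted p = 0.0137), although it never passed 2.00 FPKM.

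A different time course was seen for Ccl5 (RANTES), a leukocyte-attracting ligand and a classical NF-kB and interferon target. Ccl5 was 24.0 and 25.4 FPKM at D0, 26.3 without and 24.7 with ROS at D4, and 60.8 without and 20.7 with ROS at D8. Levels were alike at D0, D4 and D8 with ROS, from 20.7 to 26.3, and the D8 sample without ROS stood above these, with 60.8 FPKM. In the transduced samples Ccl5 was 15.3 and 189 in WT A and B, 68.2 in S265A, 181 in S265D and 36.3 in S265D-H1120Y, so that WT B and S265D were the highest and WT A was near the D8 sample with ROS. Ccl9, a ligand of Ccr1, was 9.24 and 10.9 FPKM at D0, 11.7 without and 19.0 with ROS at D4, and 9.84 without and 13.9 with ROS at D8, and 11.4 and 16.9 in WT A and B, 20.8 in S265A, 9.68 in S265D and 16.8 in S265D-H1120Y. Ccl25, the ligand of Ccr9, was 3.81 and 4.60 FPKM at D0, 3.79 without and 3.89 with ROS at D4, and 3.48 without and 3.44 with ROS at D8, and 3.60 and 5.99 in WT A and B, 7.56 in S265A, 4.42 in S265D and 9.27 in S265D-H1120Y. Ccl9 was higher with than without ROS at D4 and at D8, by less than 2-fold, and Ccl25 stayed between 3.44 and 4.60 over the time course. Ccl27a was 1.52 to 2.50 FPKM on its representative row and 3.54 to 5.89 on another coding row. It may hold reads of near-identical copies on chromosome 4, which was not tested, and its value is uncertain.

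Among the CXC ligands, Cxcl5 and Cxcl14 fell early and were not regained. Cxcl5, a neutrophil attractant that signals through Cxcr2, was 2.38 and 2.17 FPKM at D0, 0.0387 without and 0 with ROS at D4, and 0.0695 without and 0 with ROS at D8. Cxcl14 was 3.31 and 3.36 FPKM at D0, 0.105 without and 0.0215 with ROS at D4, and 0.112 without and 0.0535 with ROS at D8. Both were above 2 FPKM in the D0 samples and at 0 to 0.112 afterwards, and they also stayed at 0 to 0.121 in the 5 transduced samples. Cxcl1 (KC), another ligand of Cxcr2 within the same 134 kb as Cxcl5, was kept without ROS. Cxcl1 was 8.43 and 9.88 FPKM at D0, 5.34 without and 2.89 with ROS at D4, and 9.20 without and 3.65 with ROS at D8, and 0.482 and 2.35 in WT A and B, 1.13 in S265A, 1.78 in S265D and 1.07 in S265D-H1120Y. Its 2 D0 values and the D8 value without ROS overlapped, and the samples with ROS lay below them.

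Cxcl9, Cxcl10 and Cxcl11, the interferon-inducible ligands of Cxcr3, lie within 41.9 kb of chromosome 5. Cxcl10 (IP-10) was 21.9 and 23.4 FPKM at D0, 37.6 without and 36.5 with ROS at D4, and 80.4 without and 22.3 with ROS at D8. Cxcl9 (MIG) was 0.301 and 0.353 FPKM at D0, 2.16 without and 1.86 with ROS at D4, and 3.65 without and 0.922 with ROS at D8. Within the time course each was highest in the D8 sample without ROS, 3.54-fold above D0 for Cxcl10 and 8.79-fold for Cxcl9. With ROS at D8 Cxcl10 lay between its 2 D0 values. Cxcl11 reached 0.939 FPKM at D8 without ROS and lay between 0.0989 and 0.162 in the other time course samples. Cxcl10 and Cxcl11 overlap the span of Art3, and their FPKM is strand-specific. In the transduced samples Cxcl10 was 7.63 and 27.4 in WT A and B, 12.8 in S265A, 20.2 in S265D and 16.2 in S265D-H1120Y, and Cxcl9 was 2.66 and 4.03 in WT A and B, 1.74 in S265A, 3.32 in S265D and 1.46 in S265D-H1120Y. The lowest Cxcl10 was that of WT A, and the highest Cxcl9 of all samples was that of WT B. Cxcl13, the B-cell attractant that binds Cxcr5, was 0.0365 and 0 FPKM at D0, 4.40 without and 2.35 with ROS at D4, and 2.06 without and 0.572 with ROS at D8, and 0.184 and 0.605 in WT A and B, 1.32 in S265A, 0.976 in S265D and 1.94 in S265D-H1120Y. It was listed at or near 0 at D0, was highest at D4, and on the scale of FPKM + 0.1 rose 5.68-fold at D8 with ROS (limma adjusted p = 0.0154), a call that was lost at D8 with and without ROS when the pseudocount was 0.01.

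Cx3cl1 (fractalkine), which exists as a membrane-bound and a shed form, was 24.5 and 25.6 FPKM at D0, 12.7 without and 10.2 with ROS at D4, and 16 without and 4.87 with ROS at D8, and 7.41 and 10.9 in WT A and B, 9.4 in S265A, 6.39 in S265D and 7.54 in S265D-H1120Y. It fell 5.06-fold at D8 with ROS, to below all other samples. Cxcl16, the ligand of Cxcr6 and a scavenger receptor, was 1.22 and 1.24 FPKM at D0, 1.40 without and 1.35 with ROS at D4, and 3.46 without and 1.56 with ROS at D8, and 1.08 and 3.81 in WT A and B, 3.03 in S265A, 5.85 in S265D and 2.62 in S265D-H1120Y. Its highest values were in S265D and WT B. Cxcl12 (SDF-1), the ligand of Cxcr4, was 33.1 and 37.5 FPKM at D0, 20.8 without and 14.2 with ROS at D4, and 20.1 without and 7.98 with ROS at D8, and 16.4 and 4.09 in WT A and B, 15.6 in S265A, 8.12 in S265D and 9.54 in S265D-H1120Y, on its representative row of 3173 bases. That fall of 4.38-fold at D8 with ROS depended on the row. On the shorter isoform of 1878 bases Cxcl12 was 85.7 and 95.7 FPKM at D0, 112 without and 74.1 with ROS at D4, and 121 without and 53.7 with ROS at D8, so that it was above D0 without ROS and under 2-fold below D0 with ROS. The rows share exons, and mapped bases in the shared exons entered each row.

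The receptors of these chemokines were low or at 0 in the cells themselves. Of the chemokine receptors 2 reached 0.5 FPKM, Cxcr4 with a highest value of 0.892 (D8 with ROS) and the scavenging receptor Cxcr7, now named Ackr3, with 0.890 (D0). Cxcr4 was 0.0234 and 0.0235 FPKM at D0 and 8.04-fold higher at D8 with ROS (limma adjusted p = 0.00543), while Cxcr7 fell 3.91-fold (limma adjusted p = 0.0204). Ccr2 and Cxcr3, the receptors of Ccl2 and of Cxcl10, were at 0 in every sample, and Cx3cr1 did not exceed 0.0171. Il1a, Il1b and Il10 were at 0 throughout as well, and the highest value of Il6 was 0.277.

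Interleukins and soluble inhibitors were few and mostly low. Il1rn, the natural antagonist of the receptor Il1r1, was 6.45 and 7.11 FPKM at D0, 13.6 without and 9.84 with ROS at D4, and 19.9 without and 5.57 with ROS at D8, and 2.92 and 17.4 in WT A and B, 30.4 in S265A, 26.2 in S265D and 1.24 in S265D-H1120Y. Like Cxcl10, it had its highest time course value at D8 without ROS and was near D0 at D8 with ROS. Il34, a ligand of the Csf1 receptor, was 1.88 and 2.17 FPKM at D0, 0.279 without and 0.125 with ROS at D4, and 0.743 without and 0.136 with ROS at D8, and 0.0779 and 0.526 in WT A and B, 0.196 in S265A, 0.0814 in S265D and 0.0630 in S265D-H1120Y. It fell 9.01-fold at D8 with ROS (limma adjusted p = 0.00647) and 2.52-fold without it. Il18 was 6.05 and 5.47 FPKM at D0, 3.06 without and 2.32 with ROS at D4, and 4.28 without and 1.96 with ROS at D8, and 3.54 and 6.0 in WT A and B, 3.35 in S265A, 4.18 in S265D and 4.29 in S265D-H1120Y. All D0 values of Il18 lay above those of D4 and D8.

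Receptor chains of the IL-1 family diverged within a cluster on chromosome 1 of 283 kb. Il1rl1 (ST2), the receptor of Il33, was 14.6 and 14.9 FPKM at D0, 0.145 without and 0.0352 with ROS at D4, and 0.492 without and 0.10 with ROS at D8. Its D0 values were above all others, and it fell 25.1-fold at D8 without ROS and 74.3-fold with ROS (limma adjusted p = 0.00886 and 0.00538). Il18rap, the accessory chain of the Il18 receptor, was 2.11 and 2.27 FPKM at D0, 0 without and 0 with ROS at D4, and 0.0368 without and 0.0157 with ROS at D8. Il1r1, the signalling receptor of IL-1, was 16.4 and 15.7 FPKM at D0, 17.0 without and 11.2 with ROS at D4, and 9.26 without and 5.52 with ROS at D8. The 3 neighbours thus behaved unequally, since Il1rl1 and Il18rap were near 0 from D4 onward and Il1r1 still had 5.52 FPKM at D8 with ROS. In the transduced samples Il1rl1 was 0.0876 and 0.932 in WT A and B, 0.356 in S265A, 1.04 in S265D and 0.240 in S265D-H1120Y, Il18rap was 0 to 0.0807, and Il1r1 was 6.17 and 13.6 in WT A and B, 6.52 in S265A, 10.7 in S265D and 6.53 in S265D-H1120Y. The 2 shorter soluble-form rows of Il1rl1, which were not in the limma fit, had 32.7 to 32.9 FPKM at D0, above the 14.6 and 14.9 of the full-length row, and 0.260 and 0.263 at D8 with ROS.

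Il15ra, which binds Il15 and presents it to neighbouring cells, was low at D0 and rose by D4. Il15ra was 0.370 and 0.523 FPKM at D0, 9.21 without and 10.0 with ROS at D4, and 10.5 without and 10.6 with ROS at D8. The values of D4 and D8 lay between 9.21 and 10.6 with or without ROS, 19.5-fold above D0 at D8 with ROS on the scale of FPKM + 0.1 (limma adjusted p = 0.00756). The transduced values were 21.2 and 4.95 in WT A and B, 9.29 in S265A, 12.5 in S265D and 6.0 in S265D-H1120Y, where WT A was the highest and WT B the lowest. Il31ra, which pairs with Osmr to bind Il31 and lies with Il6st within 117 kb of chromosome 13, was 0 and 0.0233 FPKM at D0, 0.660 without and 0.537 with ROS at D4, and 0.526 without and 0.320 with ROS at D8, and 0.483 and 5.58 in WT A and B, 1.34 in S265A, 7.54 in S265D and 0.578 in S265D-H1120Y. Only WT B and S265D passed 5 FPKM.

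Il17rc, a chain of the Il17a receptor, was 25.9 and 26.6 FPKM at D0, 34.8 without and 43.1 with ROS at D4, and 46.6 without and 51.1 with ROS at D8. Il17ra, its partner, was 13.0 and 13.5 FPKM at D0, 8.87 without and 8.07 with ROS at D4, and 7.29 without and 4.87 with ROS at D8. Il17re, within 24.7 kb of Il17rc, was 0.0146 and 0 FPKM at D0, 0.307 without and 0.184 with ROS at D4, and 1.67 without and 0.703 with ROS at D8. Il17rc and Il17re were higher, and Il17ra lower, in each D4 and D8 sample than at D0. In the transduced samples Il17rc was 46.1 and 37.3 in WT A and B, 49.0 in S265A, 34.1 in S265D and 36.2 in S265D-H1120Y, Il17ra was 4.86 and 8.79 in WT A and B, 8.64 in S265A, 9.94 in S265D and 10.9 in S265D-H1120Y, and Il17re was 0.779 and 0.603 in WT A and B, 0.564 in S265A, 0.378 in S265D and 0.617 in S265D-H1120Y.

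Chains of the gp130 and IL-4 families ranged from 0.572 FPKM (Il13ra1 at D8 with ROS) to 71.9 FPKM (Il6st at D4 without ROS). Il6st was 71.5 and 70.1 FPKM at D0, 71.9 without and 43.9 with ROS at D4, and 54.4 without and 41.3 with ROS at D8, and 34.0 and 53.3 in WT A and B, 49.4 in S265A, 54.5 in S265D and 51.6 in S265D-H1120Y. Il6ra, the IL-6 binding chain, was 11.4 and 10.7 FPKM at D0, 11.1 without and 8.38 with ROS at D4, and 11.3 without and 15.3 with ROS at D8, and 2.02 and 8.38 in WT A and B, 5.78 in S265A, 5.49 in S265D and 5.05 in S265D-H1120Y. Il11ra1 was 23.4 and 24.2 FPKM at D0, 31.5 without and 28.5 with ROS at D4, and 39.6 without and 26.7 with ROS at D8, and 17.1 and 17.9 in WT A and B, 24.3 in S265A, 17.6 in S265D and 19.0 in S265D-H1120Y, with reads that may also come from its near-identical copies on chromosome 4. These 3 stayed within 2-fold of D0 at D8, where Il6st fell 1.71-fold with ROS, Il6ra rose 1.39-fold with ROS and Il11ra1 rose 1.66-fold without it (limma adjusted p = 0.0103, 0.0395 and 0.0174). Il4ra, which binds Il4 and Il13, was 16.4 and 17.0 FPKM at D0, 8.45 without and 5.55 with ROS at D4, and 10.9 without and 3.56 with ROS at D8, and 2.20 and 7.94 in WT A and B, 3.11 in S265A, 8.21 in S265D and 2.77 in S265D-H1120Y. Its partner Il13ra1 was 4.24 and 3.80 FPKM at D0, 1.30 without and 1.09 with ROS at D4, and 1.15 without and 0.572 with ROS at D8, and 0.757 and 2.02 in WT A and B, 0.927 in S265A, 1.94 in S265D and 1.68 in S265D-H1120Y. Il4ra fell 4.58-fold and Il13ra1 6.13-fold at D8 with ROS (limma adjusted p = 0.00587 and 0.00722). Il10rb, shared by the receptors of Il10 and Il22, was 14.4 and 16.2 FPKM at D0, 13.9 without and 12.6 with ROS at D4, and 23.4 without and 17.3 with ROS at D8, and 15.5 and 18.9 in WT A and B, 15.8 in S265A, 17.8 in S265D and 14.5 in S265D-H1120Y. Il3ra was 5.62 and 5.46 FPKM at D0, 8.72 without and 8.87 with ROS at D4, and 12.8 without and 9.08 with ROS at D8, and 5.73 and 8.61 in WT A and B, 12.0 in S265A, 7.04 in S265D and 6.74 in S265D-H1120Y. Il3ra rose 2.28-fold at D8 without ROS (limma adjusted p = 0.0146), and Il10rb stayed within 2-fold of D0.

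**Figure D2:**
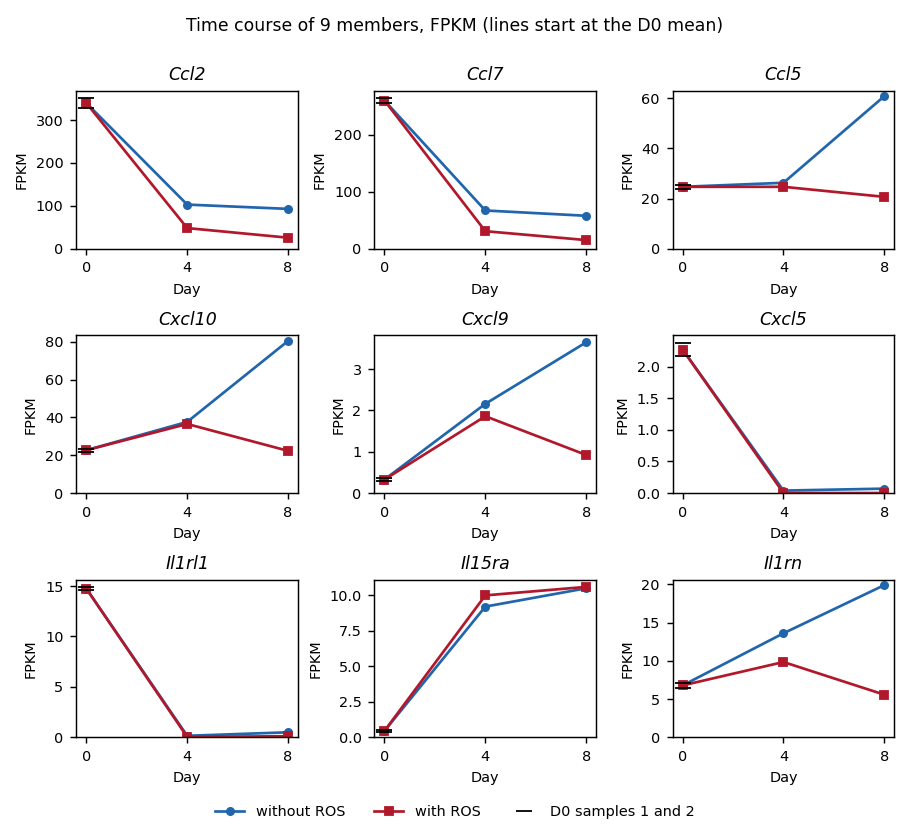
FPKM (vertical axis, from 0) at days 0, 4 and 8 (horizontal axis) for 9 members without ROS (blue circles) and with ROS (red squares). Lines start at the mean of the 2 D0 samples, whose own values are black bars, and each later point is 1 sample. Ccl5, Cxcl10, Cxcl9 and Il1rn separate at D8, Il15ra lies between 9.21 and 10.6 FPKM at D4 and D8 with and without ROS, and Cxcl5 and Il1rl1 are low in both (Il1rl1 0.492 without and 0.10 with ROS at D8).

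The effect of ROS was compared at matched days. At D4, 3 of 52 members were at least 2-fold lower with ROS (Ccl2, Ccl7 and Ccl11), beside 1.29% of all tested genes, and 0 were 2-fold higher, beside 0.508%. At D8, 22 of 52 were at least 2-fold lower, beside 10.8% of all tested genes, and 1, Il22ra2, was higher (0.195 against 0.562 FPKM), beside 2.48%. The median log2 ratio at D8 was −0.82 for the members and −0.21 for all genes, and 44 of 52 members (69.4% of all genes) were below 0. With a pseudocount of 1 the 22 became 11, and the share of all tested genes with that pseudocount was not counted. Dividing the samples by trimmed-mean scaling factors brought the median of all genes to 0.01, and 16 members (7.68% of all genes) were then at least 2-fold lower and 1 (3.96%) higher. Each ROS group at D4 and D8 is 1 sample, and limma with the spread of the D0 pair called 0 members and 0 genes at either day (smallest adjusted p 0.463 at D4 and 0.0650 at D8). At an unadjusted p under 0.05, limma gave 23 members and 1372 genes at D4, and 33 members and 4586 genes at D8. With a pseudocount of 1 in place of 0.1, limma called 12 members and 693 genes at D8.

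Ligands held most of the difference at D8. Of 10 CXC or CX3C ligands 8 were at least 2-fold lower with ROS (median log2 ratio −1.50), as were 5 of 9 CC ligands (−1.10). The counts were 5 of 10 interleukins or inhibitors (−0.94) and 4 of 21 interleukin receptor chains (−0.56), beside 10.8% of all tested genes (−0.21). With trimmed-mean scaling Ccl6, Cxcl16, Il17re, Il18, Il18bp and Il2rb were no longer 2-fold lower. On the scale of FPKM + 0.1 the largest difference was that of Cxcl11, 5.22-fold, followed by Ccl8 with 4.28-fold and Ccl7 with 3.76-fold. Next came Cxcl9 with 3.67-fold, Cxcl10 with 3.60-fold and Ccl2 with 3.58-fold. Cxcl11 (0.939 without and 0.0989 with ROS) and Ccl8 (1.97 and 0.383) were low, so their place in this order depends on the pseudocount. Ccl2 and Ccl7 were already 2-fold lower with ROS at D4. For Cxcl9 and Cxcl10 the D4 samples with and without ROS were close (1.86 and 2.16, and 36.5 and 37.6 FPKM). Among the other classes, Il1rn was 3.52-fold lower, Il34 3.57-fold, Il4ra 3.00-fold and Il1rl1 2.96-fold, whereas Il15ra (10.5 without and 10.6 with ROS), Il17rc and Ccl9 were not lower. Cxcl12 was lower with ROS on both rows, 2.50-fold on the representative row.

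Markers of the cell state moved with this difference. From D8 without to D8 with ROS the sum of 8 preadipocyte and fibroblast markers went from 1199 to 533 FPKM, with 5 of the 8 genes at least 2-fold lower. The sum of adipocyte markers went from 10218 to 36688 FPKM, with 3 of 8 at least 2-fold higher. Fabp4 held most of that sum (7631 without and 31402 with ROS). Pparg went the other way (231 without and 140 with ROS), and the other adipocyte markers were higher with ROS. The part of these markers in the result was not tested. In bulk RNA, fewer cells of a type and less RNA per cell cannot be told apart. Of the leukocyte markers that reached 0.5 FPKM, S100a8 was 4.44 without and 1.05 with ROS, Cd68 2.45 and 4.30, and Cd14 0.639 and 0.690, with list sums of 7.86 and 6.20, and Ptprc, Emr1, Tyrobp and Ncr1 were at 0 in both samples. The endothelial marker Kdr was 0.567 without and 0.0216 with ROS, with list sums of 1.20 and 0.549.

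Many of the same members also differed within the WT pair, in which both cultures had ROS. Of the 22 members lower with ROS at D8, 16 (72.7%) were at least 2-fold higher in WT B than in WT A, and these were 64.0% of the 25 members higher in WT B. For all tested genes 548 of the 1410 lower with ROS (38.9%) were higher in WT B, and these were 34.8% of 1574. The base rates were unlike, since 48.1% of all 52 members and 12.1% of all tested genes were higher in WT B. The 72.7% and 38.9% therefore do not show an overlap particular to the members. The members shared by both counts include Ccl2, Ccl5, Ccl7, Ccl8, Cxcl1, Cxcl10, Cxcl11, Cxcl13, Cxcl16, Il1rn, Il34 and Il4ra. For 11 of the 22 the D8 sample without ROS lay above all 5 transduced samples, among them Ccl7, Cxcl1, Cxcl10 and Cx3cl1, while for 10, among them Ccl2 and Ccl5, it lay within their range. The share above, 50.0%, was near that of all genes lower with ROS (53.5%).

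**Figure D3:**
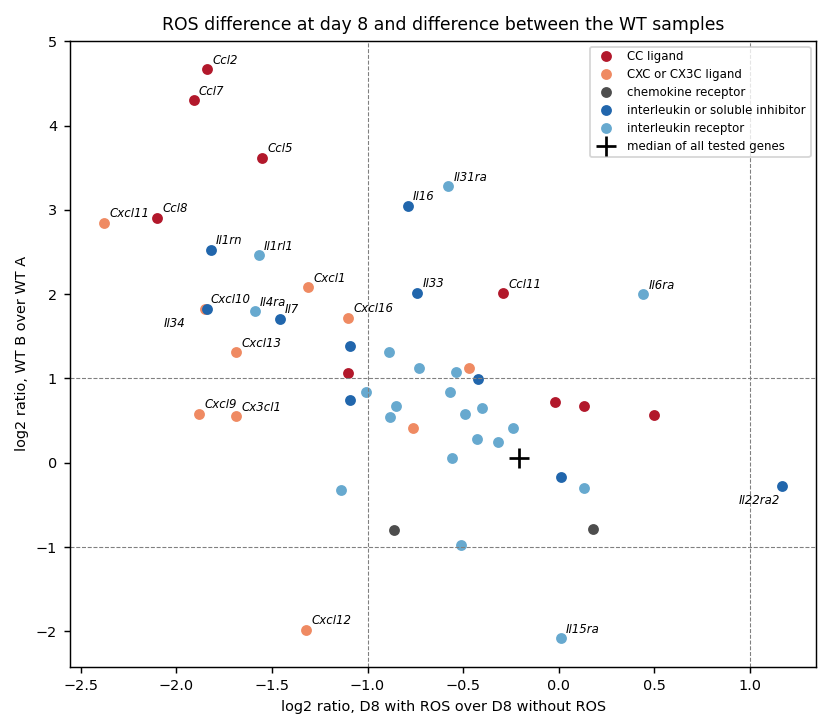
Each point is 1 of the 52 members, coloured by class, with the log2 ratio of D8 with ROS over D8 without ROS (horizontal axis) and the log2 ratio of WT B over WT A (vertical axis). Dashed lines mark 2-fold, and the cross is the median of all 12998 tested genes (−0.21 and 0.06). The upper left field, lower with ROS and higher in WT B, holds 16 members.

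Transduced cultures were compared to ask whether the phosphorylation-site and catalytic substitutions of JMJD1A changed these genes. Against the mean of the WT pair, 4 members were at least 2-fold lower in S265A (3.49% of all genes) and 2 higher (1.42%), and 1 was lower (2.18%) and 4 higher (1.61%) in S265D. These counts depended on which WT sample was used. Against WT A alone 16 members were at least 2-fold higher in S265A (7.57% of all genes) and 3 lower (5.29%), and 22 were higher (9.38%) and 3 lower (4.89%) in S265D. Against WT B alone 2 were higher (2.69%) and 16 lower (4.02%) in S265A, and 1 was higher (2.74%) and 2 were lower (1.52%) in S265D. Limma called 0 members and 0 genes in each of the 4 comparisons of transduced samples (smallest adjusted p 1.00), with 0, 0, 0 and 1 members and 37, 30, 36 and 125 genes at an unadjusted p under 0.05 for S265A over WT, S265D over WT, S265D over S265A and S265D-H1120Y over S265D.

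The mutants were also set against the range from WT A to WT B. The S265A value was within it for 34 of 52 members (65.4%, against 54.3% of all genes), the S265D value for 30 (57.7% against 57.2%, near the share of all genes) and the S265D-H1120Y value for 35 (67.3% against 41.6%). These shares depend on the width of the range. WT B was at least 2-fold above WT A for 48.1% of the members and 12.1% of all genes, so a higher share of members inside says little about the mutants. In S265A 1 member, Cxcl13, was at least 2-fold above both WT samples (0.608% of all genes) and 1, Cxcr4, at least 2-fold below both (0.439%). In S265D there were 0 above (0.700%) and 0 below (0.231%). In S265D-H1120Y Cxcl13 and Il23a were above both (1.72%), and Il1rn was below both (1.66%). Il23a, a subunit of IL-23, was 1.16 FPKM in S265D-H1120Y and at most 0.339 in the other 10 samples.

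The phosphomimetic and the phosphorylation-deficient form were set side by side. In S265D 9 of 52 members were at least 2-fold higher than in S265A, beside 3.85% of all genes, and 2 were lower, beside 1.63%. The 9 were Ccl5, Cxcl11, Cxcr4, Il16, Il18bp, Il1rl1, Il31ra, Il33 and Il4ra, and all of them except Cxcr4 were more than 2-fold higher in WT B than in WT A as well. Ccl5 was 2.66-fold higher (181 against 68.2 FPKM) and Il31ra 5.31-fold higher (7.54 against 1.34 FPKM). In S265D-H1120Y 11 members were at least 2-fold lower than in S265D (5.36% of all genes) and 3 higher (2.89%). The 11 were Ccl5, Cxcl16, Cxcl5, Cxcl9, Il15ra, Il16, Il1rl1, Il1rn, Il31ra, Il4ra and Il7. All of them except Cxcl5, Cxcl9 and Il15ra were at least 2-fold higher in WT B than in WT A. Il1rn was 19.6-fold lower (1.24 against 26.2 FPKM), Il31ra 11.3-fold and Ccl5 4.99-fold. In WT A and B Il1rn was 2.92 and 17.4 FPKM, Il31ra 0.483 and 5.58, and Ccl5 15.3 and 189. The S265D-H1120Y values of Il31ra and Ccl5 lay within that range, and that of Il1rn below it. Marker sums moved with these groups too. The preadipocyte and fibroblast sum was 1017 FPKM in S265A, 1200 in S265D and 761 in S265D-H1120Y, and the adipocyte sum was 26608, 25644 and 16007 in the same order. The leukocyte sum was 10.7, 12.4 and 23.8 (Cd68 9.0, 10.3 and 21.7) and the endothelial sum 2.37, 2.82 and 4.09, while Ptprc, Emr1, Tyrobp and Ncr1 were at 0. The part of these markers in the results was not tested.

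**Figure D4:**
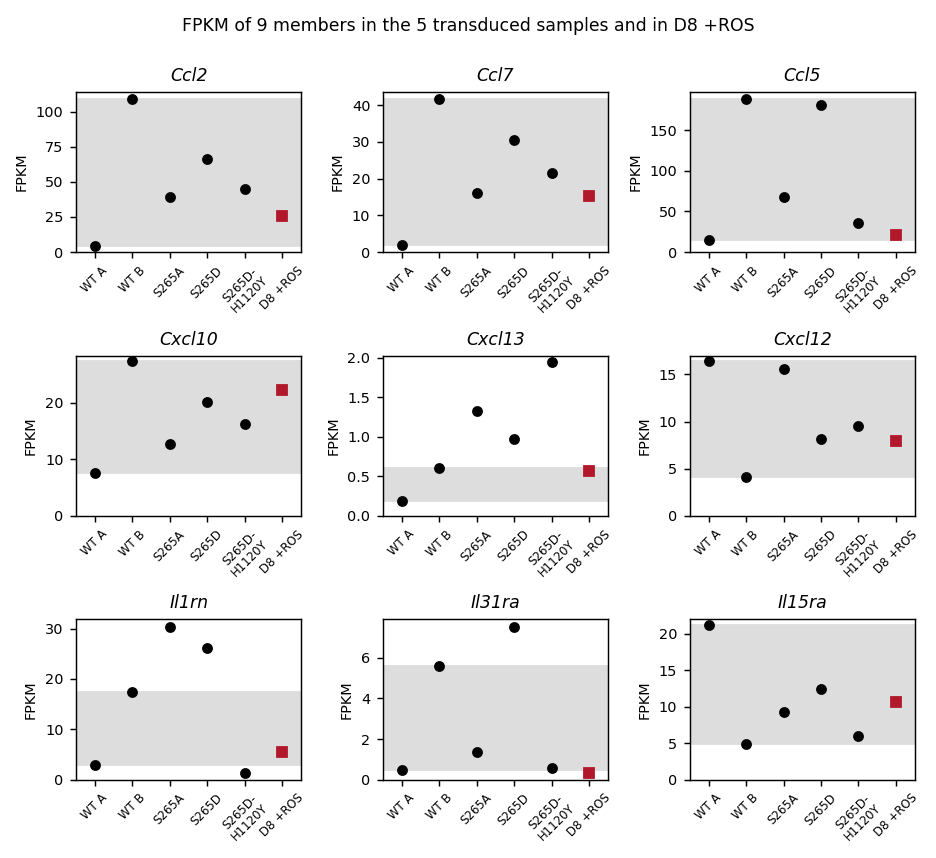
FPKM (vertical axis, from 0) of 9 members in the 5 transduced samples (black points) and in the untransduced D8 sample with ROS (red square), each point 1 sample. The grey band spans WT A to WT B, and all 3 mutant values lie inside it for Ccl2, Ccl7, Ccl5, Cxcl10, Cxcl12 and Il15ra.

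Other genes of the same pathways were read from wider lists. Of 29 genes of NF-kB and IL-1/TLR signalling 0 were at least 2-fold higher with ROS at D8, beside 2.48% of all tested genes. At least 2-fold lower were 3 (Nfkbie, Tlr2 and Tlr3), and this 10.3% was near the 10.8% of all tested genes. Against D0 at D8 with ROS 2 were higher (6.90%, against 17.8% of all genes) and 5 lower (17.2% against 21.5%). Tlr2, a receptor of bacterial lipoproteins, was 7.02 and 7.30 FPKM at D0, 2.64 without and 1.77 with ROS at D4, and 4.53 without and 0.942 with ROS at D8. Cebpd and Cebpb, which drive adipogenesis and acute-phase genes, were the 2 higher ones, with 15.5 and 87.4 FPKM at D8 with ROS. The inhibitor Nfkbie was 2.66 FPKM at D8 without and 0.726 with ROS.

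Of 25 genes of gp130 and JAK-STAT signalling 22 were tested, and 5 of these (22.7%, against 10.8% of all genes) were at least 2-fold lower with ROS at D8 (Lif, Stat2, Socs1 and Socs3 among them), with 0 higher (2.48% of all genes). Clcf1, a gp130 ligand, was 23.5 and 23.3 FPKM at D0, 3.09 without and 2.94 with ROS at D4, and 2.81 without and 2.27 with ROS at D8. Clcf1 was low from D4 onward with or without ROS. Jak3 was 0.750 and 0.736 FPKM at D0 and 7.52 at D8 with ROS, and Lif was 1.62 and 1.10 at D0 and 0.216 at D8 with ROS.

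Of 27 further chemokine and cytokine genes outside the naming rule 10 were tested. At least 2-fold lower with ROS at D8 were 3 of these (Cmtm3, Csf1 and Crlf2, beside 10.8% of all genes), and 0 were higher (2.48% of all genes). Csf1 (M-CSF), the growth factor of macrophages, was 202 and 205 FPKM at D0, 54.7 without and 26.5 with ROS at D4, and 62.4 without and 17.4 with ROS at D8. It resembled Ccl2, being highest at D0 and lower with ROS at each day. Cmtm3 was 34.1 and 34.2 FPKM at D0 and 4.75 at D8 with ROS, Ddt was 54.1 and 56.4 at D0 and 269, and Cd74, the receptor of Mif, was 1.23 and 1.35 at D0 and 4.53.

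The remaining 18 members did not meet the rule for single values, and their highest FPKM ran from 0.525 (Ccl6) to 4.74 (Il18bp). At D8 with ROS 5 of these 18 were at least 2-fold lower than at D0 (Cxcr7, Il12rb1, Il17rd, Il1rl2 and Il7; 27.8%, against 21.5% of all genes) and 4 higher (Ccl6, Cxcr4, Il22ra2 and Il23a; 22.2% against 17.8%), shares not far from those of all genes, and 7 were at least 2-fold higher in WT B than in WT A (38.9% against 12.1%). Il33, the ligand of Il1rl1, did not exceed 0.688 FPKM, and Il15, the ligand of Il15ra, was 0.776 to 4.47 FPKM.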

How the data were processed

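RNA-seq of 11 samples in 9 groups was used. The authors made TruSeq libraries and mapped the reads with BWA against the UCSC transcriptome and the mm9 genome, followed by local realignment with an in-house aligner. FPKM was computed strand by strand and deposited for 55419 transcripts. A further deposited column holds the signal (coverage) of each transcript as mapped bases, which served only for depth. Depth per sample was 3.10 to 5.29 Gb, read counts were not derived, and the precision of low values is limited.

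The 12998 coding genes that reached 0.5 FPKM in any sample were tested. Ratios are of FPKM + 0.1, which understates the change of low genes. The time course and the transduced samples were fitted separately in R 4.3.3 with limma 3.58.1 (moderated statistics with a trend, log2 of FPKM + 0.1). P-values were adjusted by Benjamini-Hochberg and called at 0.05. Each of these fits had 1 residual degree of freedom, from the D0 pair or the WT pair. The limma script was tested on simulated data. Groups came from the labels. Values in every sample are given for members with a highest FPKM of at least 5, and for members with at least 1 and a 4-fold difference against D0 or between ROS and no ROS at D8. Wider lists are given as counts with up to 4 genes by the ratio of D8 with ROS over D0. Members, lists and tests were chosen with earlier results of these data known. Alternatives changed the pseudocount, the minimum, the transcript row, the scaling, the samples in the fit and the replicate left out. Some genes of the lists are not reported here. Promoter windows are RefSeq's (GRCm38.p6). Further software was Python 3.11.15, pandas 2.3.3, numpy 2.4.6 and matplotlib 3.10.9.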

Additional observations from a re-analysis of the deposited data

Results flagged for a closer look

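Il31ra moved in opposite directions in S265A and S265D against the mean of the WT pair, with log2 ratios of −1.12 and 1.29. The difference was not tested, each mutant is 1 sample, and WT A (0.483 FPKM) and WT B (5.58 FPKM) were further apart than either mutant was from their mean on the log2 scale.

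Antisense rows, which no comparison above used, reached 0.5 FPKM for 4 genes of the naming rule, and for 2 of them at least 2-fold above both D0 samples. The antisense row of Ccr10 was 1.22 FPKM at D4 without ROS, 0.885 at D4 with ROS, 1.19 at D8 without ROS, 0.644 at D8 with ROS, 1.14 in S265D, 0.641 in WT B and 0.776 in S265D-H1120Y, compared with 0.234 and 0.309 at D0. The antisense row of Il4i1 was 0.579 FPKM at D8 without ROS and 0.552 at D8 with ROS, compared with 0.0933 and 0.271 at D0. The other two were Ccl2, whose antisense row was highest at D0 (0.716 and 0.546), and Il17rc, with 0.520 in S265A and 0.205 and 0.279 at D0.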

How the results depend on the processing

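Most groups are 1 sample, and depth as mapped bases sets no counting error, so ratios of members near the minimum are the least certain. Pairing by the labelled arm was possible only for D4 and D8 over D0 with both arms together, in limma fits chosen after seeing the data. With the arm as a replicate block these called 5521 genes and 25 members at D4 and 6720 and 31 at D8, and without the block 5533 and 21, and 6825 and 27. No paired analysis was possible for ROS or for the mutants because each arm is 1 level of ROS and the WT samples share no number with other groups. For the members given sample by sample, 121 ratios were at least 2-fold. Of their 896 values under alternatives, 894 kept their direction, 849 of them past 2-fold and 45 under it. The other 2 left out WT B. Leaving out each WT sample gave a log2 ratio over WT from −1.98 to 1.30 for Il31ra in S265A and from −1.79 to 0.03 for Il34 in S265D.

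Counts of members at least 2-fold apart moved as follows, and shares of all tested genes were not counted for the pseudocount and minimum settings. With a pseudocount of 1, 3 were higher at D4 with ROS than at D0, 10 higher and 7 lower at D8 without ROS, and 1 higher at D8 with ROS. For ROS over no ROS at D8, 11 were then lower and 0 higher, and 0 were higher with a minimum of 1 FPKM. A pseudocount of 0.01 gave 10 higher at D4 without ROS over D0, and 11 lower with ROS at D4, where genes with no minimum gave 2 higher and 5 lower. For S265A over WT, 1 was higher and 0 lower with a pseudocount of 1, 4 higher with 0.01, 4 higher with no minimum and 1 lower with a minimum of 1. For S265D over WT, 2 were higher and 0 lower with a pseudocount of 1, 7 higher and 3 lower with 0.01, and 2 lower with no minimum. For S265D over S265A, 4 were higher and 1 lower with a pseudocount of 1, 5 lower with 0.01, 5 higher and 1 lower with a minimum of 1, and 6 lower with no minimum. For S265D-H1120Y over S265D, 0 were higher and 4 lower with a pseudocount of 1. Leaving out each WT sample gave 2 to 16 higher and 3 to 16 lower in S265A, and 1 to 22 higher and 2 to 3 lower in S265D. The low-value settings act on genes near the minimum, and the cause of the WT range was not tested.

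In limma, 1 fit over all 11 samples called 659 genes and 3 members at D4 without ROS over D0, 1027 and 5 at D4 with ROS, 714 and 4 at D8 without ROS and 2678 and 10 at D8 with ROS. Leaving out each D0 or WT sample from that fit gave 12 to 5689, 32 to 6247, 22 to 6323 and 52 to 7748 genes, and 0 to 32, 0 to 35, 0 to 36 and 0 to 35 members, the low ends without D0 replicate 1 or 2, where the WT pair alone gives the spread (12 and 15, 33 and 32, 26 and 22, and 52 and 52 genes). For ROS at D8, a pseudocount of 1 called 693 genes and 12 members, and a pseudocount of 0.01 called 20 genes and 0 members. The members' smallest adjusted p at D8 ran from 0.0466 with a pseudocount of 1 to 1.00 without a D0 sample.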
